A study of Mus musculus with 12 samples.

Results

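The MHC class II and myeloid transcripts described here are 9 genes, measured in 12 RNA-seq libraries of sorted mouse T cells: the class II major histocompatibility complex (MHC) genes H2-Aa, H2-Ab1 and H2-Eb1, their partner Cd74, their regulator Ciita, and 4 genes of myeloid cells, Itgax, Csf1r, C1qb and Lyz2. They were chosen by their symbols, and 9 of 9 have a row among the 21839 genes of the count table. The mice were C57BL/6 and every animal carried Atg5 flox/flox. In the group called TG the mice were also CD11c Cre +/-, so that Cre, driven by the promoter of CD11c (the product of Itgax), deletes the autophagy gene Atg5 in cells that express CD11c, chiefly dendritic cells. The WT littermates were CD11c Cre -/- and kept a working Atg5. From spleen and from inguinal, cervical and brachial lymph nodes, CD4-enriched cells were sorted as CD4+ CD62L+ with CD25 High or CD25 Low, and both gates were labelled regulatory T cells. Each of the 4 combinations of genotype and gate had 3 libraries, numbered 1 to 3 in the labels, so that TG Low 2 is the CD25 Low library numbered 2 of TG mice. The labels give no ages and do not state whether a group's libraries are from different animals. The p-values therefore rest on the spread between libraries, which may be partly technical.

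Total counts ran from 6767828 in TG High 2 to 23942479. Levels are CPM: counts divided by the library size after TMM scaling in edgeR. The markers of the sorted cells were high in all 12 libraries: Foxp3, the defining transcription factor of regulatory T cells, ranged from 983 to 1660 CPM, and Cd4 from 513 to 715 CPM. Il2ra, which encodes CD25, was at 1070 to 1310 CPM in the CD25 High libraries and at 481 to 734 CPM in the CD25 Low libraries. Between groups, libraries with the same number deviated from their group means together (the correlations are given with the processing), so the replicate number enters several results as a block.

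Class II MHC molecules are pairs of an alpha and a beta chain that present peptides to CD4 T cells. H2-Aa and H2-Ab1 encode the alpha and beta chain of I-A, and H2-Eb1 the beta chain of I-E. Cd74 encodes the invariant chain, which escorts the pair through the cell, and CIITA, the product of Ciita, is the coactivator that switches these genes on. In mice they are made above all by B cells, dendritic cells and activated macrophages, whereas mouse T cells make little or none. CIITA does not bind DNA itself: it is recruited by a complex of RFX, CREB and NF-Y proteins that sits on conserved X and Y boxes upstream of class II genes. Of the myeloid genes, Itgax encodes an integrin chain of dendritic cells and some macrophages, Csf1r the receptor for macrophage colony-stimulating factor, C1qb a chain of complement C1q made by tissue macrophages, and Lyz2 the lysozyme of macrophages, monocytes and neutrophils.

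The X and Y boxes are shown for H2-Aa and H2-Eb1, the class II members whose upstream sequence was at hand. Boxes of this kind are described above as the place where CIITA is recruited, and the level of Ciita is followed below. No binding or regulation was measured in these libraries. H2-Oa and H2-Eb2 were added as windows that hold the element, so their matches are no separate support. Windows of other class II genes are not shown. The 5 members with a promoter entry in RefSeq (GRCm38.p6) were H2-Aa, H2-Eb1, Itgax, C1qb and Lyz2, and the windows searched were the 250 bases before the start site. The letters searched on both strands were GCAAC for the core of the X box, CTGATTGG for the Y box and TGACGTCA for a cyclic AMP element, chosen with these sequences in view. They do not overlap one another in the stretches printed, which run 5′ to 3′ on the gene's strand, with matches in capitals. The H2-Aa stretch is chr17:34287847-34287924 (minus strand), that of H2-Eb1 chr17:34305756-34305832 (plus strand), that of H2-Oa, a chain of the class II accessory molecule H2-O, chr17:34092283-34092360 (plus strand), and that of H2-Eb2, a second class II beta chain gene, chr17:34325523-34325599 (plus strand).
H2-Aa: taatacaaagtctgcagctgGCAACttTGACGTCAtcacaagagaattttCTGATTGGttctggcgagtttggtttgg
H2-Eb1: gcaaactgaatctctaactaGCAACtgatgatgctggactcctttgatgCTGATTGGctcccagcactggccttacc
H2-Oa: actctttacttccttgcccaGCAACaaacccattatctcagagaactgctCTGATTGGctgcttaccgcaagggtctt
H2-Eb2: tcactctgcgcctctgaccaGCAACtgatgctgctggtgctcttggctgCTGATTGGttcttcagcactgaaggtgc

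In H2-Aa the X core began 81 bases and the Y box 51 bases before the start site, with 25 bases between them. The spacing was 24 bases in H2-Eb1, 25 in H2-Oa and 24 in H2-Eb2. Of 32851 windows of the same length, 3.83% held the Y box letters, 29.9% the X core and 1.55% the cyclic AMP element. An X core followed within 40 bases by a Y box on the same strand was found in 25 windows (0.0761%), and 4 of these belonged to H2-Aa, H2-Eb1, H2-Eb2 and H2-Oa. The Itgax window held 1 X core and no Y box, and those of C1qb and Lyz2 held none of the letters searched. A match is a description of the sequence, not a site of binding.

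All 9 genes are protein coding in GENCODE vM21 on GRCm38. H2-Ab1 (ENSMUSG00000073421, chr17:34257689-34269419, plus strand), H2-Aa (ENSMUSG00000036594, chr17:34282744-34287823, minus strand) and H2-Eb1 (ENSMUSG00000060586, chr17:34305867-34316674, plus strand) are neighbours in the MHC. Cd74 (ENSMUSG00000024610) lies at chr18:60803848-60812652 (plus strand) and Ciita (ENSMUSG00000022504) at chr16:10480059-10528418 (plus strand). Itgax (ENSMUSG00000030789) lies at chr7:128129547-128150657 (plus strand), Csf1r (ENSMUSG00000024621) at chr18:61100598-61132149 (plus strand), C1qb (ENSMUSG00000036905) at chr4:136880129-136886187 (minus strand) and Lyz2 (ENSMUSG00000069516) at chr10:117277331-117282321 (minus strand). Exons of Ciita overlap those of Dexi, and exons of Csf1r those of Hmgxb3, on the opposite strand, and the library chemistry does not keep strand, so some reads of these pairs cannot be told apart. Reads of Lyz2 may likewise be shared with its near-identical copy Lyz1.

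Per length of exon sequence, the order of the medians over the 12 libraries was Cd74 at 52.1 RPKM (CPM divided by the exon length in kilobases), H2-Ab1 at 5.98, H2-Eb1 at 3.39, H2-Aa at 2.61, Lyz2 at 0.434, Ciita at 0.309, C1qb at 0.0945, Csf1r at 0.0140 and Itgax at 0.00439 RPKM. With the length of the principal transcript in place of all exons, H2-Aa stood at 8.79 and H2-Eb1 at 3.94 RPKM, so the order of these genes depends on the length used. The spread over libraries was wider than the steps between neighbours in this order. Over all exons, the RPKM of Cd74 was still above that of H2-Ab1, and that of H2-Ab1 above that of H2-Eb1, in every library.

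H2-Ab1 varied 52.5-fold over the libraries, and the 4 libraries numbered 1, of both genotypes and both gates, were the highest. In the 4 libraries numbered 1 it was at 63.0 (WT High), 137 (TG High), 114 (WT Low) and 174 CPM (TG Low). In those numbered 2 it was at 5.48 (WT High), 18.1 (TG High), 12.7 (WT Low) and 35.9 CPM (TG Low). In those numbered 3 it was at 3.31, 4.64, 7.24 and 6.09 CPM in the same order of groups. All 4 libraries numbered 1 were above the other 8, TG Low 2 came next, and the 4 groups overlapped throughout. In bulk RNA, fewer cells of a type and less RNA per cell cannot be told apart.

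The other class II genes had the same library order at its top. H2-Aa, the I-A alpha chain, was at 41.6 (WT High), 78.7 (TG High), 65.1 (WT Low) and 108 CPM (TG Low) in the libraries numbered 1 and at 2.75 to 21.8 CPM in the others. H2-Eb1, the I-E beta chain, was at 28.7 to 77.3 CPM in the libraries numbered 1, again lowest in WT High and highest in TG Low, and at 1.97 to 14.1 CPM in the others. For both, TG Low 2 was the highest of the 8 libraries numbered 2 or 3.

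Cd74, the invariant chain, had the highest level per length of the 9 genes in every library. In CPM it was at 290 (WT High), 513 (TG High), 400 (WT Low) and 596 CPM (TG Low) in the libraries numbered 1. Those numbered 2 gave 51.1, 114, 61.0 and 160 CPM, and those numbered 3 gave 29.7, 38.6, 33.4 and 41.3 CPM, in the same order of groups. The 3 numbers did not overlap for Cd74.

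Ciita, the coactivator, was low but present in all 12 libraries, with 16 to 269 counts. The libraries numbered 1 were at 5.36 (WT High), 10.4 (TG High), 10.1 (WT Low) and 13.8 CPM (TG Low). Those numbered 2 were at 1.01, 3.06, 2.84 and 3.79 CPM, and those numbered 3 at 0.697, 0.985, 1.66 and 1.64 CPM. The libraries numbered 1 again stood above all others, with a range of 19.8-fold.

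**Figure D1:**
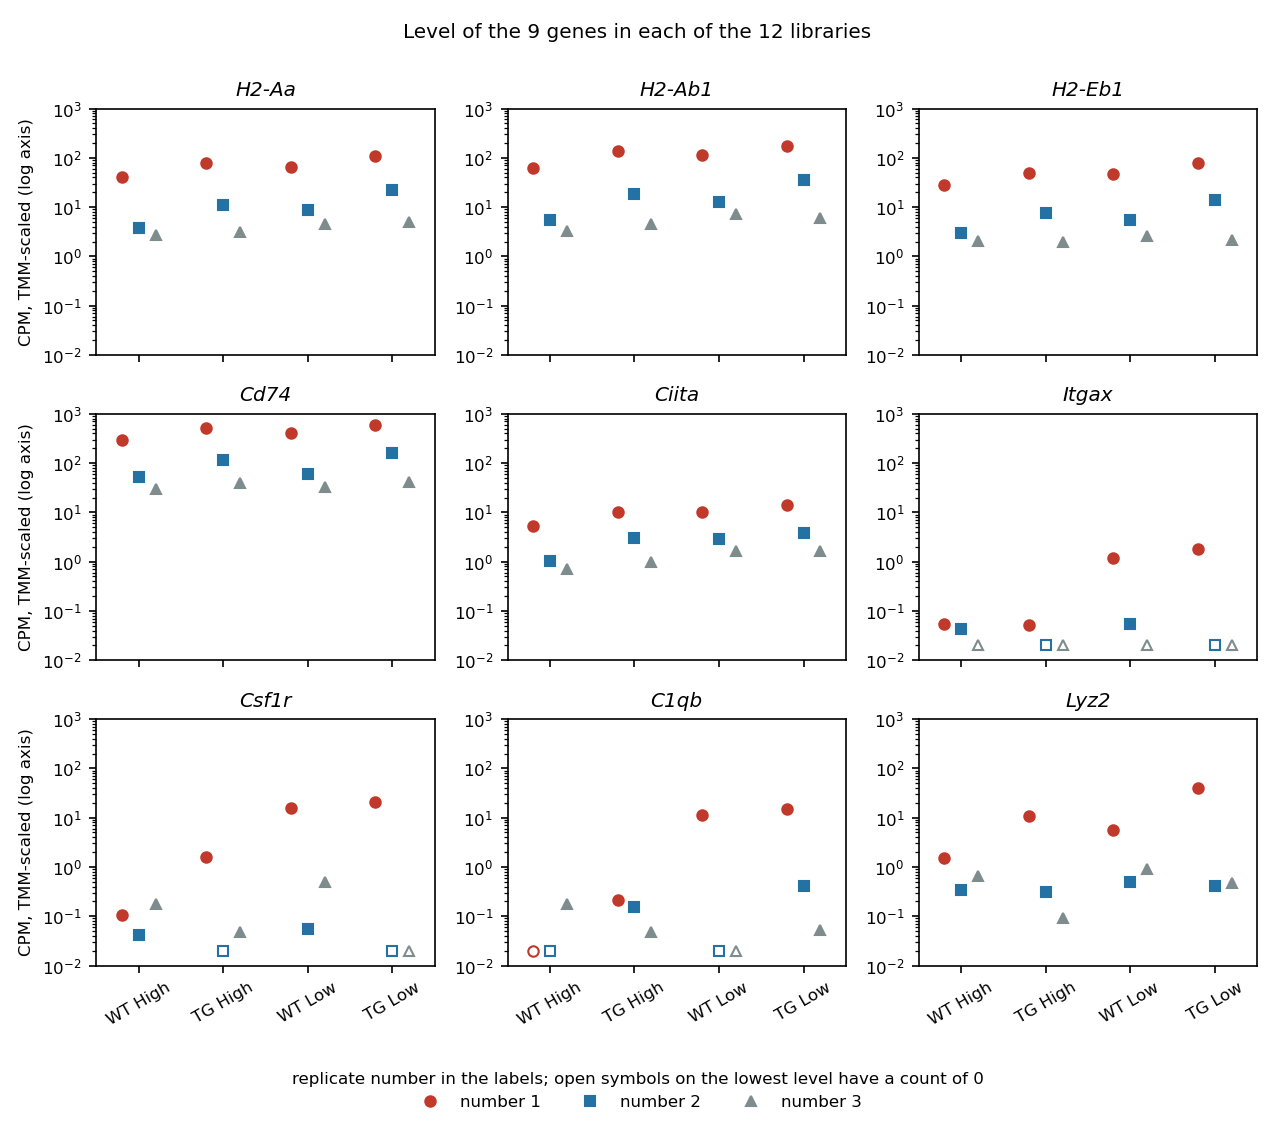
Level of each of the 9 genes in each library, in TMM-scaled CPM on a log axis, by group on the x axis; symbols and colours give the replicate number, 1 point per library, and open symbols mark counts of 0. For H2-Aa, H2-Ab1, H2-Eb1, Cd74, Ciita and Lyz2 the 4 libraries numbered 1 lie above the other 8, whereas Itgax, Csf1r and C1qb are high in the 2 CD25 Low libraries numbered 1.

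Replicate number was tested as a factor in the edgeR quasi-likelihood fit, beside the 4 groups, with Benjamini-Hochberg adjustment over all 11766 tested genes. Of the 9 members, 7 passed the low-count filter (Itgax and C1qb did not), and 7 of 7 were called, where 34.3% of all tested genes were. Csf1r and Lyz2 passed the filter only with the help of libraries numbered 1, so their calls are no separate support. H2-Ab1 was higher in the libraries numbered 1 by 2.90 over number 2 and by 4.48 over number 3 on the log2 scale (adjusted p = 4.09e-05). Log2 differences of number 1 over numbers 2 and 3 were 2.82 and 4.23 for H2-Aa (adjusted p = 1.85e-07), 2.82 and 4.43 for H2-Eb1 (adjusted p = 2.32e-07) and 2.30 and 3.60 for Cd74 (adjusted p = 1.81e-06). Ciita differed less, by 1.96 and 2.99 (adjusted p = 3.32e-08). Foxp3 differed by -0.08 and -0.10 and was not called (adjusted p = 0.445). The labels do not say what the numbers mark. Library totals do not separate them: the shallowest library is numbered 2. The number of genes with a count does set number 1 apart, at 13860 to 14164 against 12370 to 13540 in the other 8 libraries. The cause was not tested.

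H2-Aa and H2-Eb1 varied nearly in proportion to H2-Ab1, and Cd74 and Ciita less so. Over the 12 libraries the ratio of counts to H2-Ab1 spanned 1.45-fold for H2-Aa and 1.77-fold for H2-Eb1. It spanned 2.73-fold for Cd74 and 3.54-fold for Ciita. Counts of H2-Aa were 0.572 to 0.829 times those of H2-Ab1 in every library, while H2-Aa itself ranged 39.3-fold. Counts of H2-Eb1 were 0.357 to 0.632 times those of H2-Ab1. For each count of H2-Ab1 there were 3.42 to 4.60 counts of Cd74 in the libraries numbered 1, against 4.45 to 9.33 in those numbered 2 and 4.61 to 8.97 in those numbered 3. The ratio of Ciita to H2-Ab1 was 0.0763 to 0.0884 in the libraries numbered 1 and 0.211 to 0.270 in those numbered 3, and these bands do not overlap. Ratios of counts carry the gene lengths and are compared here only between libraries.

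Other genes of class II presentation showed which steps shared this pattern. Of 18 tested genes of that list, 10 were called for replicate number, where 34.3% of all tested genes were. Of 19 measured genes, 7 had all 4 libraries numbered 1 above the other 8 (H2-DMb1, H2-DMb2, H2-Oa, H2-Eb2, Ifi30, March1 and Cd83), a pattern that 7.73% of all genes with a count met. H2-DMb2, a beta chain of the peptide editor H2-DM, was at 8.52 to 20.7 CPM in the libraries numbered 1 and at 0.843 to 4.29 CPM in the others. H2-Oa, whose X and Y boxes are shown above, was at 13.0 to 19.9 CPM against 4.26 to 7.22 CPM. H2-DMa, the alpha chain of H2-DM, was at 37.3 to 50.1 CPM over all libraries and was not called (adjusted p = 0.12). H2-Ob, the beta chain of H2-O, was at 112 to 145 CPM, and was called for replicate number with log2 differences of -0.07 (number 1 minus 2) and -0.26 (number 1 minus 3), so lower in number 1 (adjusted p = 0.0153). Ctss, the protease cathepsin S that trims the invariant chain, was at 295 to 398 CPM and was not called (adjusted p = 0.514). H2-DMa and H2-Ob thus did not share the library order of their partner chains H2-DMb2 and H2-Oa.

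B cell markers moved with the class II genes across the libraries. The summed level of the 16 measured B cell markers was 861 (WT High), 1250 (TG High), 1040 (WT Low) and 1290 CPM (TG Low) in the libraries numbered 1 and 445 to 700 CPM in the other 8. The sums spanned 445 to 861 CPM across WT High, 535 to 1250 across TG High, 513 to 1040 across WT Low and 610 to 1290 across TG Low. Of the 16, 15 were called for replicate number, where 34.3% of all tested genes were, and 14 had all 4 libraries numbered 1 above the other 8 (not Ighm and Ralgps2). Fcrla was at 0 in 1 library, and no other marker of the list was at 0 in any. Cd79a, a signalling chain of the B cell receptor, was at 29.4 (WT High), 52.8 (TG High), 44.3 (WT Low) and 52.2 CPM (TG Low) in the libraries numbered 1. Those numbered 2 gave 6.20, 9.34, 8.62 and 16.0 CPM, and those numbered 3 gave 4.62, 4.74, 5.87 and 6.15 CPM, in the same order of groups. The libraries of the 3 numbers did not overlap for Cd79a, and TG Low 2 was again the highest outside number 1. While H2-Ab1 ranged 52.5-fold, the ratio of its counts to those of Cd79a lay between 0.717 and 3.33, and the ratio to Ms4a1, which encodes CD20, between 2.03 and 5.75. The ratio to Cd79a was 2.15 to 3.33 in the libraries numbered 1 and 0.717 to 1.23 in those numbered 3, and these bands do not overlap. The part of B cell RNA in the class II levels was not tested.

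By Pearson correlation of log2 CPM over the 12 libraries, the genes most like the mean of H2-Aa, H2-Ab1, H2-Eb1 and Cd74 included Cd79a (r = 0.993), Cd22 (0.993), the immunoglobulin light chain gene Igkc (0.991) and the protease gene Ctsh (0.989). Over the 8 libraries numbered 2 or 3 alone these r were 0.986, 0.986, 0.958 and 0.941. The 12 points share their libraries and fall into sets by number, so these values only describe likeness.

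**Figure D2:**
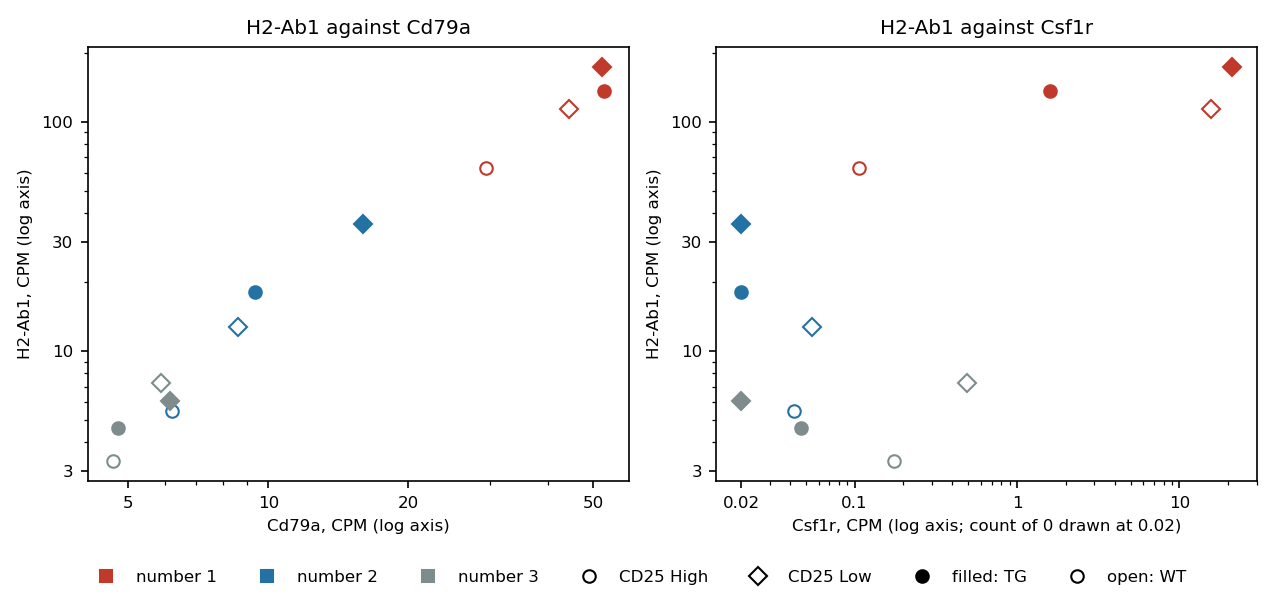
Level of H2-Ab1 (y axis, CPM, log) against Cd79a (left) and Csf1r (right; CPM, log, counts of 0 drawn at 0.02), 1 point per library; colour gives the replicate number, shape the CD25 gate and filling the genotype. Libraries with more Cd79a mostly have more H2-Ab1, which spans 3.31 to 174 CPM, but TG High 1 and WT High 1 have high H2-Ab1 with Csf1r at only 1.59 and 0.107 CPM.

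The myeloid genes were concentrated in fewer libraries than the class II genes. Csf1r, the macrophage growth factor receptor, had 303 counts in WT Low 1 (15.6 CPM) and 414 in TG Low 1 (21.2 CPM). TG High 1 had 30 counts (1.59 CPM) and WT High 1 had 2 (0.107 CPM). In the order WT then TG within High and then within Low, the libraries numbered 2 had 1, 0, 1 and 0 counts and those numbered 3 had 4, 1, 10 and 0. The 2 CD25 Low libraries numbered 1 held 93.6% of all Csf1r counts and stood apart from the other 10.

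C1qb was still more concentrated, with 225 counts in WT Low 1 (11.5 CPM) and 299 in TG Low 1 (15.3 CPM), 96.5% of its total. Outside them the highest was TG Low 2 with 8 counts (0.404 CPM). WT High 3 and TG High 1 had 4 each, TG High 2, TG High 3 and TG Low 3 had 1 each, and 4 libraries had none. For a count of 0, up to 3 counts remain possible by counting error alone, which is between 0.126 CPM (WT High 2) and 0.164 CPM (WT Low 2) in those 4.

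Itgax, the gene whose promoter drives Cre in the TG mice, was detected with 23 counts in WT Low 1 (1.18 CPM) and 35 in TG Low 1 (1.79 CPM), 93.5% of its 62 counts. WT High 1, WT High 2, TG High 1 and WT Low 2 had 1 count each and the other 6 libraries had none. The limit that a count of 0 allows in those 6 was highest in TG High 2, at 0.459 CPM. At this depth Itgax was thus not detectable beyond single counts in 10 of the 12 libraries, of either genotype. By the order of libraries, Itgax, Csf1r and C1qb (3 of 9 members) had both CD25 Low libraries numbered 1 above the other 10, which 6.2% of all genes with a count met.

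Lyz2, the lysozyme gene, shared features of both sets. In the libraries numbered 1 it had 28 counts in WT High and was at 10.7 (TG High), 5.54 (WT Low) and 39.3 CPM (TG Low), all above the other 8, where it lay between 0.0938 and 0.929 CPM. The 2 CD25 Low libraries numbered 1 held 74.3% of its counts. TG High 1 had 202 Lyz2 counts, more than the 108 of WT Low 1, although Csf1r and C1qb were at 30 and 4 counts in TG High 1 and at 303 and 225 in WT Low 1. Lyz2 was called for replicate number (adjusted p = 0.0105), with log2 differences of 4.72 over number 2 and 4.15 over number 3, and so was Csf1r (adjusted p = 0.000822), with 8.03 and 5.39. Csf1r passed the low-count filter only through TG High 1, WT Low 1 and TG Low 1, and Lyz2 also needed libraries numbered 1 to pass. The filter thus favoured both calls. In WT High, Csf1r had 2 counts in number 1 and 4 in number 3, against the fitted direction.

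Markers of macrophages moved with Itgax, Csf1r and C1qb. All 17 of 17 macrophage markers had both CD25 Low libraries numbered 1 above the other 10, as did 8 of 16 dendritic cell markers, 10 of 19 monocyte and neutrophil markers and 6 of 10 CD8 T and NK cell markers, but 0 of 16 B cell markers. The summed level of the macrophage markers was 169 CPM in WT Low 1 and 228 CPM in TG Low 1, against 10.3 to 41.6 CPM in the other 10 libraries. The sums spanned 12.9 to 33.9 CPM across WT High, 13.9 to 41.6 across TG High, 14.0 to 169 across WT Low and 10.3 to 228 across TG Low. Slc40a1, the iron exporter of macrophages that recycle red cells, was at 31.7 CPM in WT Low 1 and 32.7 CPM in TG Low 1 and at no more than 0.342 CPM elsewhere. Vcam1, an adhesion molecule of splenic macrophages, was at 19.9 and 27.9 CPM in these libraries and at no more than 0.795 CPM elsewhere. Of the 17 markers 13 were at 0 in at least 1 library, among them Adgre1, which encodes the macrophage antigen F4/80, in 6 libraries, and Fcgr1 in 10. The part of macrophage RNA in the levels of Itgax, Csf1r and C1qb was not tested.

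Some dendritic cell markers were present in every library and others were almost absent. Ccr7 (627 to 859 CPM), Ly75 (54.5 to 86.8 CPM) and Cd86 (27.9 to 54.8 CPM) were present in all 12. None of them had both CD25 Low libraries numbered 1 above the other 10. Which cells this RNA came from, the sorted T cells included, was not tested, so these levels do not measure dendritic cells. Clec9a, a marker of cross-presenting dendritic cells, and Clec10a and Clec4a2 were each at 0 in 10 of 12 libraries. Siglech, a marker of plasmacytoid dendritic cells, was at 0.616 CPM in WT Low 1 and 4.81 CPM in TG Low 1, at no more than 0.106 CPM elsewhere, and at 0 in 8 libraries. The summed dendritic cell list spanned 801 to 886 CPM across WT High, 810 to 880 across TG High, 888 to 1000 across WT Low and 864 to 970 across TG Low, most of it from Ccr7.

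**Figure D3:**
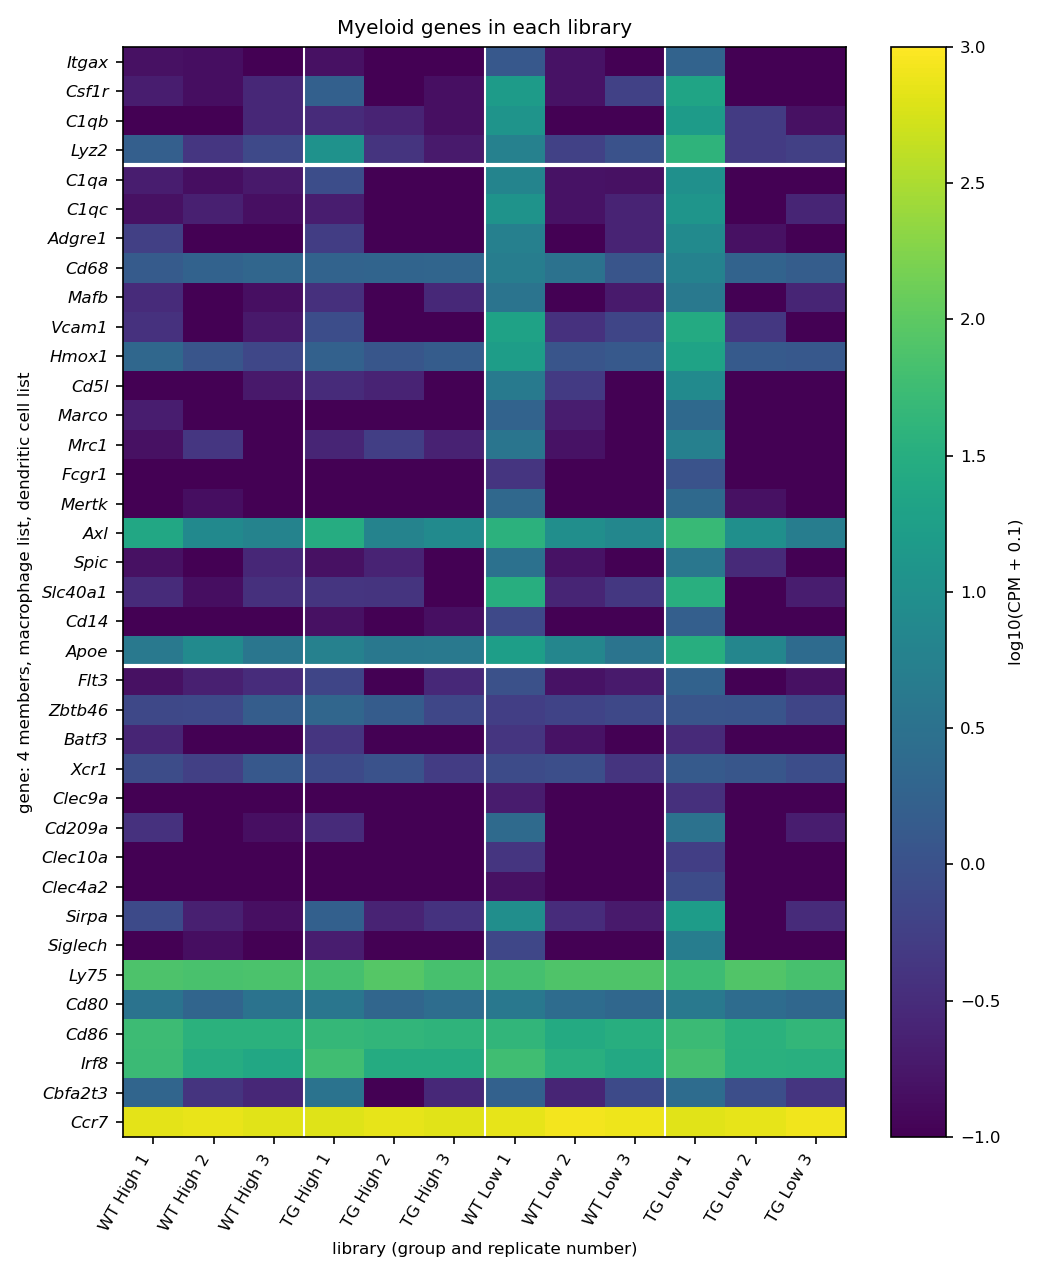
Map of log10(CPM + 0.1) for Itgax, Csf1r, C1qb and Lyz2 (top), the 17 macrophage markers (middle) and the 16 dendritic cell markers (bottom) in each library, ordered by group and number. The columns WT Low 1 and TG Low 1 are brighter for all 17 macrophage markers, and Lyz2 is also bright in TG High 1.

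Within the 2 CD25 Low libraries numbered 1, TG Low 1 had more of all 9 genes than WT Low 1, by ratios of CPM from 1.33 to 7.09. The ratio was 1.33 for C1qb, 1.36 for Csf1r, 1.52 for Itgax and 7.09 for Lyz2. Over the 17 macrophage markers it ran from 1.02 to 3.16 with a median of 1.37, and over the 16 B cell markers from 0.891 to 1.60 with a median of 1.30. The ratio of Lyz2 was thus beyond the range of both lists. In the CD25 High libraries numbered 1, Lyz2 was at 202 counts in TG and 28 in WT. Each of these values is from 1 library, so there is no test of the difference. In the pairs numbered 2 and 3, TG was below WT for Lyz2 in both gates, but all of these counts were low. In CD25 High, TG and WT had 2 and 8 counts in number 2 and 2 and 15 in number 3. In CD25 Low they had 8 and 9 in number 2 and 9 and 19 in number 3.

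By the nearness of profiles, the genes most like Itgax over the 12 libraries were Hmox1 (r = 0.972), C1qa (0.957), Aif1 (0.945), Sh2d1a (0.942) and Coro2b (0.935). Those most like the mean of Csf1r and C1qb were C1qa (0.977), Vcam1 (0.956), Pla2g7 (0.954), Trpm2 (0.948) and Hmox1 (0.938). C1qa encodes a further chain of C1q, and Hmox1 the haem-degrading enzyme heme oxygenase 1. Over the 8 libraries numbered 2 or 3 the r of Hmox1 with Itgax was -0.074 and that of C1qa with Csf1r and C1qb 0.335, so the likeness rests on the libraries numbered 1.

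The comparison of TG with WT addresses whether loss of Atg5 in CD11c-expressing cells alters the RNA of the sorted T cells. In the CD25 High gate, H2-Ab1 was at 53.2 ± 72.8 CPM in TG and 23.9 ± 33.9 CPM in WT (SD, n = 3 each), and Cd74 at 222 ± 255 and 124 ± 145 CPM, so the SDs exceeded the means. In the edgeR fit of the 4 groups, 0 of 7 tested members were called, where 0% of all genes were, and 0 of 7 had an unadjusted p under 0.05. The log2 difference was 1.19 for H2-Ab1 (interval -2.12 to 4.49) and 0.85 for Cd74 (interval -1.86 to 3.56), with 95% intervals from the SE. For none of the 9 genes did any pair of the 4 groups fail to overlap, while 21.6% of genes with a count had at least 1 such pair.

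With the replicate number as a block, 0 of 7 members were called and again 0% of all genes, but 5 of 7 had an unadjusted p under 0.05: H2-Aa, H2-Ab1, H2-Eb1, Cd74 and Ciita. Of all genes tested, 418 had one. The blocked log2 differences, TG minus WT, were 0.92 for H2-Aa, 1.14 for H2-Ab1, 0.75 for H2-Eb1, 0.78 for Cd74 and 1.02 for Ciita (SE 0.25, adjusted p = 0.921). TG was above WT in 3 of 3 same-numbered pairs for H2-Aa, H2-Ab1, Cd74 and Ciita (4 of 9 members), as it was for 9.76% of genes with a count and for 12 of 16 B cell markers. The median blocked difference was 1.02 over the 7 members, 0.71 over the 16 B cell markers and 0.01 over all genes. DESeq2, which gave p-values for 6 members, called 0 of them, with 0 at an unadjusted p under 0.05.

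In the CD25 Low gate, TG was also numerically above WT. H2-Ab1 was at 72.0 ± 89.6 CPM in TG and 44.6 ± 60.1 CPM in WT, Cd74 at 266 ± 292 and 165 ± 204 CPM, and Ciita at 6.40 ± 6.48 and 4.85 ± 4.55 CPM (SD, n = 3 each). No member was called by edgeR without the block (0 of 7, and 0% of all genes), and 0 of 7 had an unadjusted p under 0.05. With the block 0 of 7 were called (0% of all genes), and H2-Aa (log2 0.81), H2-Eb1 (0.76) and Cd74 (0.78) had an unadjusted p under 0.05, among 382 genes. TG was above WT in 3 of 3 pairs for H2-Aa, Cd74 and C1qb (3 of 9, against 10.2% of genes with a count and 8 of 16 B cell markers). For Csf1r the blocked difference was -0.01 (interval -0.80 to 0.79). This value rests mainly on the pair numbered 1, with 303 counts in WT and 414 in TG. WT and TG had 1 and 0 counts in number 2 and 10 and 0 in number 3, so the interval is no evidence that the genotypes are alike.

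The difference of the TG minus WT effects between gates was also tested, and 0 of 7 members (0% of all genes) were called by edgeR with or without the block. None of the 7 had an unadjusted p under 0.05 in either fit, and DESeq2 called 0. The largest blocked differences of effects, High minus Low, were those of Csf1r (interval -1.56 to 5.17) and of Ciita, at 0.70 (interval 0.04 to 1.35, unadjusted p = 0.0535, adjusted p = 1). The 95% interval of Ciita leaves out 0 although its quasi-likelihood p does not pass, because the F test uses fewer degrees of freedom than a normal interval.

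The gate comparison addresses how CD25 High and CD25 Low cells differ. In WT, Ciita was lower in CD25 High than in CD25 Low in each pair: 5.36 against 10.1 CPM in number 1, 1.01 against 2.84 in number 2 and 0.697 against 1.66 in number 3. In edgeR without the block, 0 of 7 members were called, where 0.051% of all genes were, and 0 of 7 had an unadjusted p under 0.05. With the block 1 of 7 was called, Ciita, where 1.63% of all genes were. The blocked log2 difference of Ciita was -1.17 (SE 0.24, interval -1.64 to -0.70, adjusted p = 0.0166), a level 2.25-fold lower in CD25 High. The call was lost when WT High 1 (adjusted p = 0.0864), WT High 2 (0.116), WT Low 1 (0.0646), WT Low 2 (0.0632) or WT Low 3 (0.0708) was left out of the blocked edgeR fit. Reads of Dexi that fall in the shared exon may enter these counts.

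The other members were lower in CD25 High as well, without passing. Blocked differences in WT were -0.82 for H2-Aa, -1.04 for H2-Ab1, -0.67 for H2-Eb1 and -5.14 for Csf1r, all with an unadjusted p under 0.05 and adjusted p from 0.151 to 0.469 in edgeR. Those of Cd74 (-0.30) and Lyz2 (-1.20) had larger p. For Csf1r the difference came from number 1, with 2 counts in WT High 1 and 303 in WT Low 1, against 1 and 1 in number 2 and 4 and 10 in number 3.

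In TG, 0 of 7 members were called in edgeR without the block (0.0085% of all genes) and 0 of 7 with it (1.68% of all genes). No member had an unadjusted p under 0.05 without the block, and H2-Aa (-0.70), H2-Eb1 (-0.67) and Csf1r (-3.34) had one with it. DESeq2 called 0 members in either genotype, with 0 at an unadjusted p under 0.05. The blocked difference of Ciita was -0.47 in TG (interval -0.93 to -0.02, adjusted p = 0.435). Its difference from that in WT is the difference of effects given above, which was not called. Over both genotypes, CD25 High was below CD25 Low in 6 of 6 same-numbered pairs for 6 of 9 members (H2-Aa, H2-Ab1, H2-Eb1, Cd74, Ciita and Lyz2), as for 5.47% of genes with a count and 1 of 16 B cell markers.

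**Figure D4:**
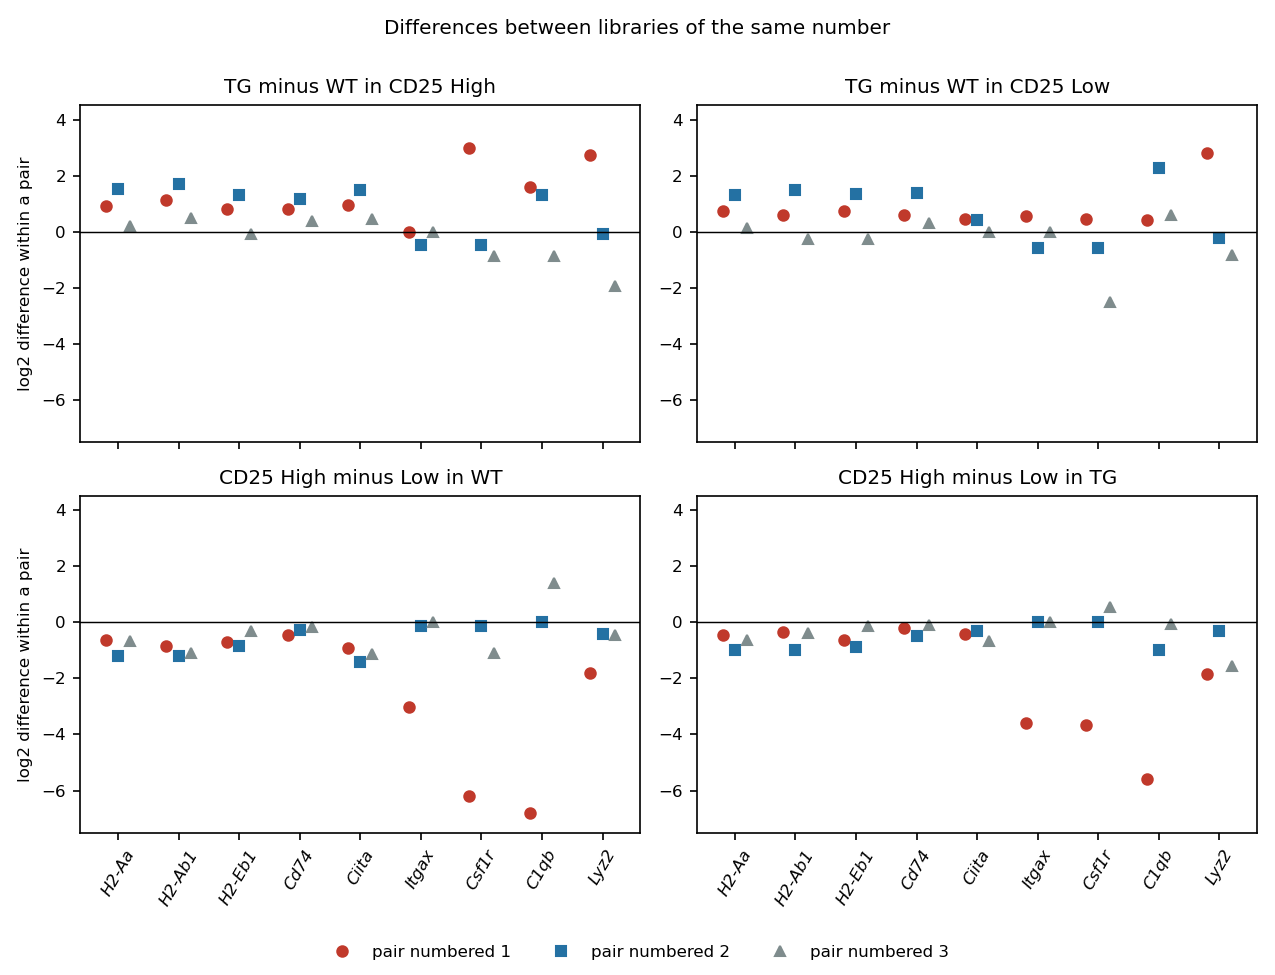
Log2 difference between libraries of the same number for each member, in the 4 comparisons; 1 point per pair, from log2 CPM with a prior count of 2, so that 2 counts of 0 give a difference near 0. Below the zero line in CD25 High minus Low lie all pairs of the class II genes, Ciita and Lyz2, and the pair numbered 1 of Itgax, Csf1r and C1qb by the widest margin.

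Among the companion lists, calls in the gate comparison came only with the block. In WT, Cd83, a protein that stabilises surface class II, was higher in CD25 High by 0.77 on the log2 scale (adjusted p = 0.00345), opposite in sign to Ciita, and Lgmn, an endosomal protease that processes the invariant chain, lower (log2 -0.47, adjusted p = 0.0431). They were the 2 called of 18 tested genes of class II presentation. Of 6 tested macrophage markers 1 was lower, Vcam1 (-5.78, adjusted p = 0.00345). Its difference came mainly from number 1, with 5 counts in WT High 1 and 388 in WT Low 1. The counts were 0 and 5 in number 2 and 2 and 12 in number 3. Of 13 tested monocyte and neutrophil markers 1 was lower, the chemokine receptor gene Ccr2 (-1.29, adjusted p = 0.00197). Of 10 CD8 T and NK cell markers 4 were lower (Klrb1c, Klrd1, Klrk1 and Ncr1). Vcam1 and these 4 genes passed the low-count filter only with the help of CD25 Low libraries. The filter thus favoured their calls in both genotypes. Of 16 B cell markers 0 were called, with a median difference of -0.44 beside -1.04 over the 7 members and 0.00 over all genes. In TG, Cd83 was higher (0.64, adjusted p = 0.0158) and Vcam1 (-4.90, adjusted p = 0.0057), Ccr2 (-1.02, adjusted p = 0.015) and Klrk1 were lower, and the B cell list again had 0 of 16 called, with a median of -0.18.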

How the data were processed

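The authors deposited raw read counts, 1 column for each of 12 libraries and 1 row per Ensembl gene, with no scaling applied. Per the labels' protocols, 10 ng of RNA from RNeasy Mini extraction was amplified with the SMARTer Ultra Low kit; the design text names Nextera XT. The submitters' processing notes list CASAVA 1.8.2, STAR 2.4, featureCounts 1.4.6 and GRCm38. Amplified reads carry no molecular identifiers, so counting limits understate the error.

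Groups came from the titles. Counts were tested with edgeR 4.0.16 in R 4.3.3 (TMM, filterByExpr with a minimum count of 10, robust glmQLFit, glmQLFTest) over all 12 libraries with 4 groups as levels, Benjamini-Hochberg adjustment over 11766 genes and a threshold of 0.05. The filter kept 99.96% of counts. An exact permutation of 3 against 3 cannot give p below 0.1. On simulated data for the WT gate comparison (11766 genes), 71% of 2-fold and 89% of 4-fold changes were recovered without the block and 89% and 99% with it, with 1 false call without the block and 19 with it. Replicates of a group differed by more than sampling noise (chi-square per degree of freedom 20.7 to 49.6).

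The pairing was checked on deviations from group means: same-numbered libraries correlated at 0.34 to 0.83 (18 pairs), others at -0.69 to 0.20 (36 pairs), and 12 of 12 libraries matched their own number best. The pairing thus comes from the data, not from the labels. Paired differences use log2 CPM with a prior count of 2.

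The 9 members, the companion lists and the replicate number as a factor were chosen with earlier results of these data known. Named genes were the members, up to 4 genes per list by mean CPM plus called genes, and the 5 most alike genes per profile, of which 1 is not reported here. Ms4a1, Slc40a1, Adgre1, Fcgr1, Siglech, Clec9a, Clec10a, Clec4a2, Ngp, S100a8, S100a9, H2-DMa, H2-DMb2, H2-Oa and H2-Eb2 were named after their values were seen. Of 122 list symbols 2 had no row. Alternatives were other scalings, filters, tests, single libraries left out, and fits without the libraries numbered 1.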

Additional observations from a re-analysis of the deposited data

How the results depend on the processing

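Of the member results recomputed under the alternatives, the count of members called for replicate number stayed at 6 to 9 in every setting, and the counts called in the genotype comparisons and in the difference of effects stayed at 0. In the gate comparison of WT the count was 1 with the replicate block and 1 with the replicate block without low count filter (chosen after seeing the data, like the fits without the 2 CD25 Low libraries numbered 1 and the blocked fits with a library left out). Leaving out single libraries of the blocked fit gave 0 to 3 members in WT and 0 to 2 in TG: H2-Aa and H2-Ab1 joined Ciita without TG Low 2, Csf1r without TG Low 1, TG Low 3 or WT High 3 in WT and without TG Low 3, WT High 1 or WT High 3 in TG, and C1qb in both without WT High 3. Over all genes, the gate comparison called 6 (WT) and 1 (TG) in edgeR, 192 and 198 with the block, and 48 and 56 in DESeq2; the block changed no other call of a member. Directions without the block depended on single libraries, except for Csf1r in the gate comparison of WT. Leaving out each library gave, for TG minus WT in CD25 High, log2 differences from -1.29 to 3.27 for H2-Aa, -1.19 to 3.61 for H2-Ab1, -1.36 to 2.97 for H2-Eb1, -0.72 to 2.46 for Cd74, -0.28 to 2.50 for Ciita, -1.46 to 3.00 for Csf1r and -2.33 to 2.93 for Lyz2, the lowest without TG High 1. In CD25 Low they were -0.97 to 2.76, -1.08 to 2.86, -1.17 to 2.94, -0.71 to 2.49, -0.84 to 1.51, -9.67 to 4.64 and -2.38 to 4.22 in the same order of genes, the lowest without TG Low 1 (for Csf1r this leaves TG at counts of 0, so the fitted value is no bound). For CD25 High minus Low in WT they were -3.00 to 1.26, -3.34 to 1.26, -2.83 to 1.46, -2.02 to 1.39 and -2.50 to 0.06 for H2-Aa, H2-Ab1, H2-Eb1, Cd74 and Ciita and -2.22 to 0.20 for Lyz2, the highest without WT Low 1; that of Csf1r was -6.13 to -1.31, negative in all 12 fits and nearest to 0 without WT Low 1. In TG they were -2.79 to 1.23, -2.79 to 1.36, -2.83 to 1.30, -1.82 to 1.15, -1.73 to 0.84, -7.42 to 6.53 (Csf1r) and -6.35 to 3.09 (Lyz2), the highest without TG Low 1. Without the 2 CD25 Low libraries numbered 1 and without the block, High minus Low was 1.26, 1.26, 1.46, 1.39, 0.06 and 0.20 in WT and 1.23, 1.35, 1.30, 1.15, 0.84 and 3.09 in TG for H2-Aa, H2-Ab1, H2-Eb1, Cd74, Ciita and Lyz2; these fits compare unequal sets of numbers. Of these gate differences only that of Lyz2 in TG changed sign with the block (0.37). Lyz2 in TG minus WT turned to -1.63 (High) and -0.69 (Low) without the 4 libraries numbered 1, -1.77 and -0.66 with the block as well, and in CD25 Low to -0.69, or -0.67 with the block, without the 2 CD25 Low libraries numbered 1. Csf1r in CD25 Low was -0.01 with the block and 0.00 with the block and no filter. The cause of these changes was not tested. Itgax and C1qb were too low for the filter, and depth limits every statement on their absence.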

Other observations

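Monocyte and neutrophil genes other than Lyz2 did not all follow its library order. Of the 13 tested, 13 were called for replicate number by edgeR, where 34.3% of all genes were. All but Cebpb were higher in number 1 than in numbers 2 and 3. Some of them passed the low-count filter only with the help of libraries numbered 1, so their calls are no separate support. Cybb, the catalytic subunit of the phagocyte oxidase, which B cells also express, was higher in the libraries numbered 1 by 2.36 (over number 2) and 4.31 (over number 3) on the log2 scale (adjusted p = 9.52e-10). Ccr2, a chemokine receptor of monocytes and of some T and NK cells, was at 19.3 to 60.3 CPM in the libraries numbered 1, 8.57 to 25.7 CPM in those numbered 2 and 0.610 to 2.12 CPM in those numbered 3 (adjusted p = 4.83e-10). The libraries numbered 3 lay below the other 8 for Ccr2, while numbers 1 and 2 overlapped. Cebpb, a transcription factor of myeloid cells, ran the other way, with log2 differences of -0.65 and -2.53 (adjusted p = 0.0472). The neutrophil granule gene Ngp and the neutrophil genes S100a8 and S100a9 stayed at or below 0.795 CPM in all 12 libraries, and S100a8 was at 0 in 9 of them.

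Plasma cell genes differed as well. Of 4 tested, 3 were called for replicate number, where 34.3% of all tested genes were. Jchain, the joining chain of secreted immunoglobulin, was higher in number 1 by 3.55 over number 2 and 4.12 over number 3 (adjusted p = 1.05e-05), and Mzb1, a chaperone of antibody-secreting cells, by 3.68 and 4.76 (adjusted p = 1.21e-08). Mzb1 passed the low-count filter only with the help of libraries numbered 1, so its call is no separate support. Xbp1, which many cell types express, was at 144 to 196 CPM and was not called (adjusted p = 0.993).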
